A study of Homo sapiens with 18 samples.

Results

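Untreated SKNO-1 was compared with untreated MV4-11 in 6 of the 18 libraries of the series, 3 per line, and 14780 of the 40184 genes in the deposited table were tested because they reached 1 CPM (the read count scaled to library size) in at least 3 of those 6 libraries. Both are established human acute myeloid leukemia (AML) lines. SKNO-1 is labelled as carrying the activating KIT N822K change and was grown with 10 ng/mL of granulocyte-macrophage colony-stimulating factor (GM-CSF). MV4-11 is labelled FLT3-ITD, an internal tandem duplication in the receptor FLT3, and had no added cytokine. The line and the cytokine therefore cannot be told apart in any difference below. All 6 cultures had received the vehicle DMSO for 24 h, and poly(A) RNA was sequenced. The same lines were also given 500 nM of the SHP2 inhibitor RMC-4550 for 24 h in 3 further libraries each, and another line, Molm-14 (FLT3-ITD), supplied 3 vehicle libraries that are used here only for reference levels. The samples are labelled as biological replicates, and nothing says whether they were separate passages, so the tests measure the spread between these cultures.

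As background, SKNO-1 is known for the RUNX1::RUNX1T1 fusion, in which the transcription factor RUNX1 is joined to a corepressor that blood cells normally do not make. MV4-11 is known for a KMT2A (MLL) fusion, a class of fusion that keeps the HOXA genes and their partner MEIS1 active. KIT and FLT3 are related receptor tyrosine kinases of blood progenitors; both signal through the phosphatase SHP2 to RAS and the MAP kinases, and both can activate STAT5, as the GM-CSF receptor does.

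The 6 libraries held 17434810 to 19959917 reads. Mitochondrial genes took 5.22 to 5.38% of reads in SKNO-1, and 12.7%, 5.87% and 14.6% in MV4-11 replicates 1, 2 and 3, so MV4-11 replicates 1 and 3 stood apart from replicate 2 (exact permutation test of the lines, two-sided p = 0.1, the smallest that 3 against 3 can give). The median replicate SD over genes was 0.086 on the log2 scale in SKNO-1 and 0.257 in MV4-11. Each list count below is therefore followed by the number of calls kept when each of the 6 libraries in turn, and MV4-11 replicates 1 and 3 together, were left out. Leaving out both of those leaves a single MV4-11 library, so the spread then comes from SKNO-1 alone and the lone library is assumed to vary like it.

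The reference line Molm-14 showed a further property of the MV4-11 libraries. Of 9407 genes at 10 CPM or more in MV4-11, 0 were below 10% of that level in both other lines, against 32 of 9237 genes for SKNO-1 and 3 of 9253 for Molm-14. All 104 genes at 10 CPM or more in MV4-11 and below 10% of that in SKNO-1 were also present in Molm-14, and 92 of them were higher there. Their median ratio of MV4-11 to Molm-14 was 0.552, and 0.534, 0.558 and 0.529 in the 3 MV4-11 libraries. These 104 were picked for a high MV4-11 level, which favours a higher ratio. A set picked without MV4-11 held 219 genes at 10 CPM or more in Molm-14 and below 10% of that in SKNO-1. For the 219, MV4-11 had a median of 0.434 of the Molm-14 level, with quartiles of 0.335 and 0.573, and 3 were below 10%. Conversely, for 325 genes at 10 CPM or more in SKNO-1 and below 10% of that in Molm-14, MV4-11 had a median of 0.518 of the SKNO-1 level, with quartiles of 0.353 and 0.760. RUNX1T1 had 0 reads in all 3 MV4-11 libraries and 32 of the 325 genes were below 10% of the SKNO-1 level there. Whether any culture held cells of more than 1 line was not tested. These thresholds were chosen after the values were seen.

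**Figure D1:**
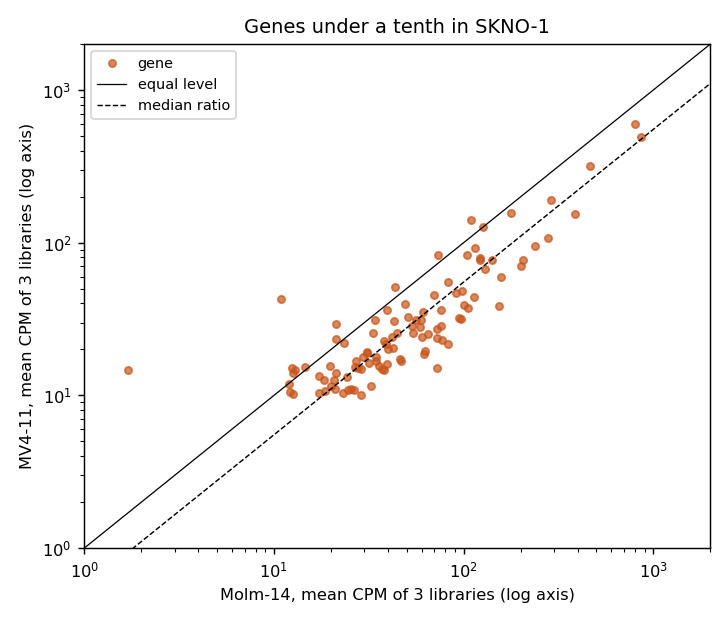
Each point is 1 of the 104 genes at 10 CPM or more in untreated MV4-11 and below 10% of that in SKNO-1, with its mean CPM over 3 libraries in Molm-14 (x axis) and in MV4-11 (y axis), both on log axes. Most of the points, 92 of 104, lie below the solid line of equal level, around the dashed line of the median ratio of 0.552.

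Most genes were alike in the 2 lines: 12586 of the 14780 differed by less than 2-fold, and the median log2 difference, SKNO-1 minus MV4-11, was 0.02. A gene was called at a limma adjusted p under 0.05. By that rule 2654 genes were higher in SKNO-1 (18% of those tested) and 2857 were lower (19.3%), together 37.3%. Among them 885 (5.99%) were higher and 1181 (7.99%) lower by 2-fold or more. The shares of 18%, 19.3% and 37.3% over all genes are the background for each list count below. The 2 lines' libraries did not overlap for 53% of genes tested. Of the 5511 calls, 1088 higher and 1540 lower were kept with every library left out, or 47.7%, and of the 2-fold calls 80.4%. The counts moved with single libraries: 5629 were higher and 4959 lower without MV4-11 replicate 2, 1500 and 1884 without replicate 1, 1697 higher without replicate 3, and 1180 to 1247 higher and 1644 to 1782 lower without 1 SKNO-1 library. The filter let 325 genes pass through SKNO-1 alone and 399 through MV4-11 alone, and such genes had to differ in level.

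**Figure D2:**
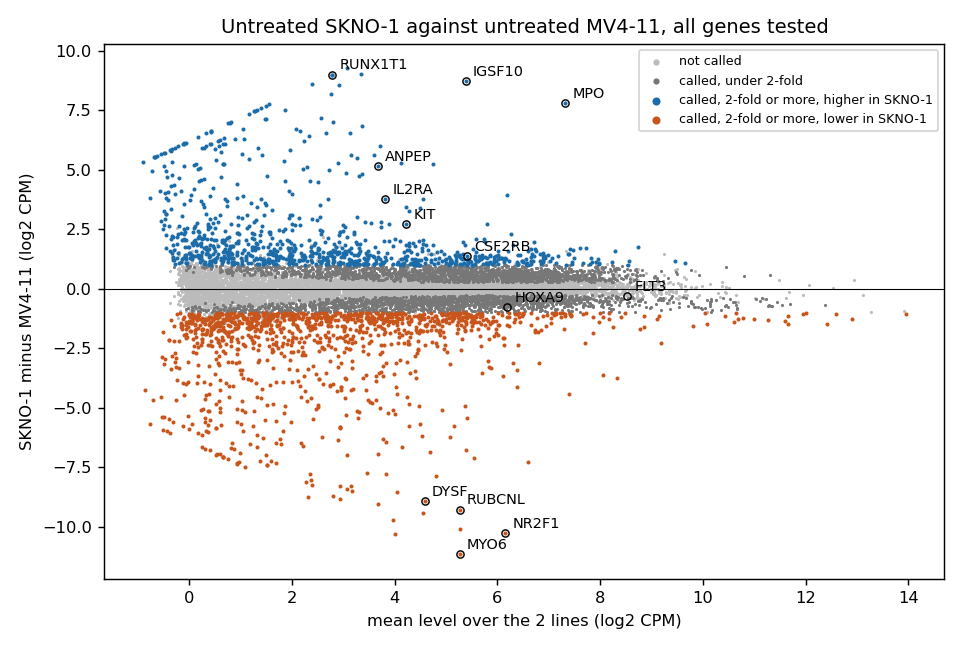
Each point is 1 of the tested genes, with its mean level over the 2 lines (x axis, log2 CPM) against its difference, SKNO-1 minus MV4-11 (y axis, log2 CPM). Coloured points are the 885 genes higher and 1181 lower by 2-fold or more; labelled are genes described in the text, with MPO and IGSF10 at the upper and MYO6 and NR2F1 at the lower edge.

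The receptors named by the labels came first. KIT (chr4:54657918-54740715, GRCh38) is the stem cell factor receptor. Its level was 32.2, 33.4 and 31.4 CPM in the SKNO-1 libraries and 5.70, 5.01 and 4.19 CPM in MV4-11. Every SKNO-1 library was above every MV4-11 library, and the difference was 2.70 ± 0.14 on the log2 scale (± the moderated standard error, here and below; limma adjusted p = 1.6e-05). In Molm-14 its mean was 0.205 CPM. FLT3 (chr13:28003274-28100592) was strongly expressed in both lines, at 337, 326 and 321 CPM in SKNO-1 and 351, 502 and 378 CPM in MV4-11. The groups did not overlap, but the difference of -0.31 ± 0.14 did not pass (limma adjusted p = 0.13). It passed as lower without MV4-11 replicate 2 (-0.15), with mitochondrial genes left out (-0.40) and with the mitochondrial share in the fit (-0.62). With replicate 2 as the lone MV4-11 library the difference was also -0.62, with the spread from SKNO-1 only. Per kilobase of annotated exon, mean FLT3 was 78.9 RPKM (CPM divided by exon length) in SKNO-1 against 5.81 RPKM for KIT in the same libraries.

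Among 18 tested receptor tyrosine kinases, SKNO-1 had 7 higher and 6 lower, and 4 and 6 of these calls were kept with every library left out. The filter was passed through SKNO-1 alone by 2 of the 18 and through MV4-11 alone by 1. The median difference was 0.10, against 0.02 over all genes, and ranged from -0.29 to 0.15 over the alternatives. CSF1R, the macrophage colony-stimulating factor receptor, was higher in SKNO-1 (132 ± 4.38 against 56.3 ± 11.5 CPM, mean ± SD, n = 3 each; log2 difference 1.25). RET, the receptor for the glial cell line-derived neurotrophic factor family, went the other way: 1.06, 1.28 and 1.18 CPM in SKNO-1 and 172, 242 and 160 CPM in MV4-11. All MV4-11 libraries lay far above SKNO-1, with a log2 difference of -7.30 ± 0.18 (limma adjusted p = 1.2e-06), and Molm-14 was at 289 CPM. The insulin-like growth factor receptor IGF1R fell by 1.88, the fibroblast growth factor receptor FGFR3 by 2.25 and the ephrin receptor EPHB4 by 1.85.

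Cytokine receptors were called in 14 of 23 tested, 11 higher and 3 lower in SKNO-1, with 5 and 1 kept with every library left out and a median difference of 0.47. CSF2RB, the shared signalling chain of the GM-CSF, interleukin-3 and interleukin-5 receptors, was at 57.4, 64.0 and 61.4 CPM in SKNO-1 and 23.2, 30.5 and 18.4 CPM in MV4-11. The groups did not overlap (log2 difference 1.37 ± 0.18, limma adjusted p = 0.0012). Its partners CSF2RA and IL3RA are not analysed here. IL2RA, the interleukin-2 receptor alpha chain (CD25), had 27.3, 24.9 and 26.5 CPM against 1.35, 2.51 and 2.09 CPM, a log2 difference of 3.75 ± 0.23. IL2RG, the common gamma chain, and IL1RAP, the interleukin-1 receptor accessory protein, were higher by 2.37 and 1.48. TGFBR1, a TGF-beta receptor, was lower, at -0.88.

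RUNX1T1, the fusion partner, was at 13.2, 13.9 and 14.4 CPM in SKNO-1 and at 0 reads in every MV4-11 and Molm-14 library. Taking 3 reads per library as the floor, it was at least 83.9-fold higher in SKNO-1. Of 15 genes known from RUNX1::RUNX1T1 leukemia, SKNO-1 had 6 higher and 6 lower, and 6 and 5 of these calls were kept with every library left out; the median difference was 0.45. Of the 15, 4 passed the filter through SKNO-1 alone and 4 through MV4-11 alone. Higher were ROBO1, a guidance receptor (17.4 ± 0.711 against 0.178 ± 0.112 CPM), JUP, plakoglobin (52.2 ± 4.83 against 1.41 ± 0.390 CPM) and PRAME, a tumour antigen (43.4 ± 0.561 against 3.20 ± 0.445 CPM). Lower were CAV1, caveolin (log2 difference -4.58), the B cell factor PAX5 (-3.89) and the adhesion molecule NCAM1, CD56 (-2.68), so members of this list moved in both directions. Of 20 cancer-testis genes, PRAME alone reached the filter.

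**Figure D3:**
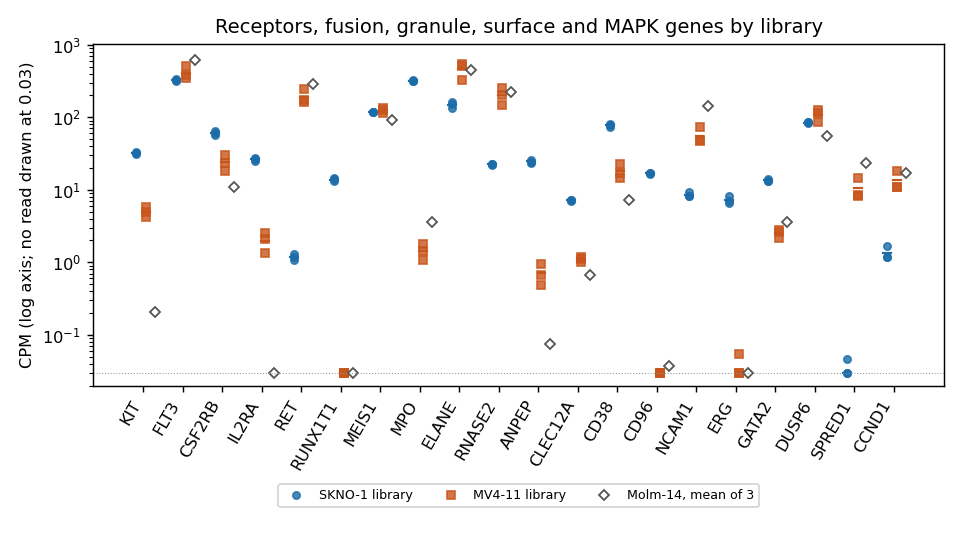
CPM on a log axis for 20 genes; circles are the 3 SKNO-1 libraries, squares the 3 MV4-11 libraries, short lines the means and diamonds the Molm-14 means, and a library with no read is drawn at 0.03. MPO, ANPEP, CD96, RUNX1T1 and ERG sit high in SKNO-1, RET and SPRED1 high in MV4-11, and FLT3, MEIS1 and DUSP6 are close in both.

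HOXA genes were mostly lower in SKNO-1: of 11 tested, 0 were higher and 10 lower, all 10 kept with every library left out and 8 of them by 2-fold or more, with a median log2 difference of -3.36 (-1.51 over the HOXA cluster members at a mean of 5 CPM or more, and -0.66 over the 4 at 1 CPM or more in at least 2 libraries of each line). The other 7 were at 1 CPM or more in fewer than 2 SKNO-1 libraries. Of these, 6 passed the filter through MV4-11 alone, so those 6 had to differ in level. The cluster lies on chromosome 7. HOXA13, at its 5′ end, was at 1.06, 0.643 and 0.848 CPM in SKNO-1 and 40.8, 51.2 and 40.6 CPM in MV4-11, a log2 difference of -5.68 ± 0.21 (limma adjusted p = 4e-06). HOXA3 (-5.42) and HOXA5 (-4.72) were similarly low in SKNO-1, with no SKNO-1 library above 0.565 CPM. The leukemia-associated members were closer. HOXA9 was at 52.5, 54.8 and 53.9 CPM in SKNO-1 and 90.5, 93.4 and 93.7 CPM in MV4-11, with no overlap and a log2 difference of -0.78 ± 0.08 (limma adjusted p = 0.00042). HOXA10 differed by -0.54 and HOXA11 by -1.51. HOXA3 overlaps HOXA4, HOXA5 and HOXA6, and HOXA9 overlaps HOXA10, in the annotation; how reads in such overlaps were assigned is not given in the sources used here.

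Of 4 tested HOXB genes, HOXB4 was higher in SKNO-1 (14.8 ± 1.02 against 8.04 ± 1.33 CPM, log2 difference 0.88). HOXB9 was at 0, 0.0459 and 0 CPM in SKNO-1 against 14.3, 16.2 and 15.2 CPM in MV4-11. Through MV4-11 alone, 2 of the 4 passed the filter. The HOX partner MEIS1 (chr2:66433452-66573869) did not pass: 120, 119 and 118 CPM in SKNO-1 and 133, 116 and 126 CPM in MV4-11, a log2 difference of -0.07 ± 0.09 (limma adjusted p = 0.56). Over the 18 KMT2A fusion target genes, 2 were higher and 5 lower, with 1 and 4 kept with every library left out. The share called was near the 37.3% over all genes tested. The list's median was -0.07, which ranged from -0.34 to 0.11 over the alternatives. BMI1, a Polycomb subunit, was at 28.3, 26.1 and 26.9 CPM against 138, 146 and 138 CPM (log2 difference -2.38 ± 0.09). LAMP5 was higher by 0.42, a call not kept with every library left out. Differences in this list ranged from -4.94 to 4.93, and 1 of the 18 passed the filter through each line alone.

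**Figure D4:**
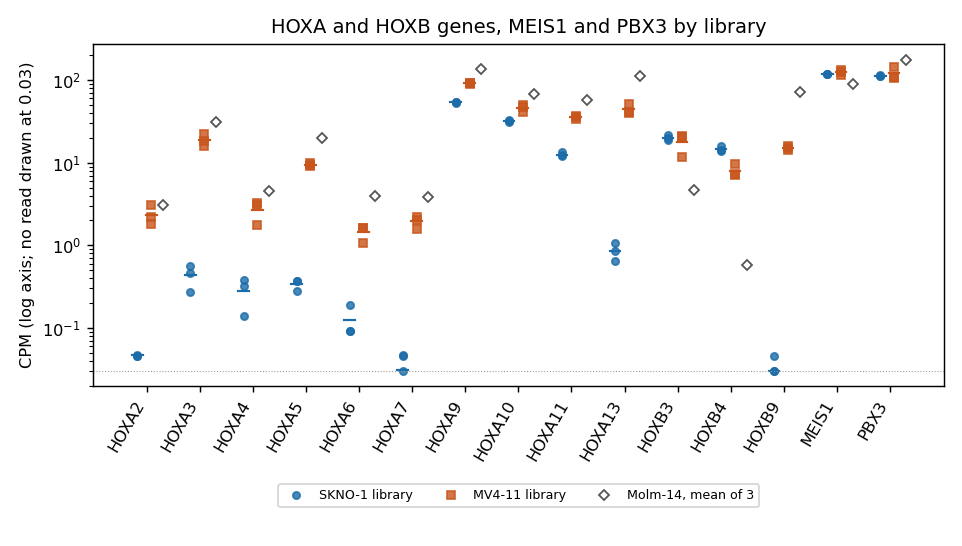
CPM on a log axis for 10 HOXA genes in their order along the chromosome, 3 HOXB genes, MEIS1 and PBX3, with symbols as in the plot of 20 genes by library. SKNO-1 lies far below MV4-11 from HOXA2 to HOXA7 and at HOXA13, within 2-fold of it at HOXA9 and HOXA10, and level with it at MEIS1.

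Some genes were found in 1 line only, defined as a mean of 10 CPM or more in that line and at most 3 reads in each library of the other. There were 9 such genes for SKNO-1 (0.0609% of genes tested) and 15 for MV4-11 (0.101%). The 9 were CA8, CD96, ZNF141, LONRF2, RUNX1T1, ITM2A, MCTP2, AEBP1 and PRSS21. All 3 MV4-11 libraries had 0 reads for CD96, ITM2A, RUNX1T1 and PRSS21. CD96, an adhesion receptor used as a marker of leukemic stem cells, was at 16.4, 16.8 and 17.0 CPM in SKNO-1, at least 102-fold above the floor of 3 reads. ZNF141, a zinc finger gene, was at 15.4, 14.8 and 14.7 CPM. The 15 for MV4-11 were MYO6, RUBCNL, DYSF, CCDC144NL-AS1, ZNF521, SLC7A2, CRISPLD1, UGGT2, ZIC1, EFNA5, HOXB9, RTL8B, SPRED1, TRHDE-AS1 and LPAR3, and all 15 were detected in Molm-14. MYO6, the minus-end directed myosin VI, was at 79.6, 72.2 and 78.8 CPM in MV4-11 and had 1 read in all of SKNO-1. RUBCNL, an autophagy regulator, was at 69.7, 87.2 and 73.4 CPM in MV4-11. ZNF521, a zinc finger cofactor of early blood progenitors, had 0 reads in SKNO-1 and 22, 52.9 and 22.1 CPM in MV4-11, at least 232-fold above the floor, with replicate 2 above the other MV4-11 libraries. At a level of 5 CPM the counts were 20 and 28, and at 20 CPM they were 1 and 6.

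The start regions of a pair of genes from each direction are shown because these genes were present in 1 line and near absent in the other. The 4 genes were picked after their values were seen, from the genes found in 1 line only that have a promoter entry, so the matches in them support nothing. They are RefSeq promoters (GRCh38.p14), 250 bases before to 50 bases after the annotated start, written 5′ to 3′ on the gene's strand. Capitals mark TGTGGT or its complement ACCACA, the core letters bound by RUNX proteins. CD96 is at chr3:111541947-111542246 and ZNF141 at chr4:337564-337863, both on the plus strand; MYO6 is at chr6:75748989-75749288 on the plus strand and RUBCNL at chr13:46387203-46387502 on the minus strand. For CD96 and RUBCNL these starts lie well within the gene body of the GENCODE model used for positions.
CD96: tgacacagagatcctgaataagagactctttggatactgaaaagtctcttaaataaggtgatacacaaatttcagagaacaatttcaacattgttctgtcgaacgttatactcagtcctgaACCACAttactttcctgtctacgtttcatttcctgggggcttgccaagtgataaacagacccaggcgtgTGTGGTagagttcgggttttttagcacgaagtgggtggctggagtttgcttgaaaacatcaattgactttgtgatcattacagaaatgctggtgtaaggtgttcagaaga
ZNF141: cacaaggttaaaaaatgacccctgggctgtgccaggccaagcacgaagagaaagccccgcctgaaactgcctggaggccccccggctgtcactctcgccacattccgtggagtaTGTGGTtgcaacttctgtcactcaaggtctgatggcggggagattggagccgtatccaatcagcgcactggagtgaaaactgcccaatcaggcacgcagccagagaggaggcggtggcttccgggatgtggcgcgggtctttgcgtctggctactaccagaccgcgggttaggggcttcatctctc
MYO6: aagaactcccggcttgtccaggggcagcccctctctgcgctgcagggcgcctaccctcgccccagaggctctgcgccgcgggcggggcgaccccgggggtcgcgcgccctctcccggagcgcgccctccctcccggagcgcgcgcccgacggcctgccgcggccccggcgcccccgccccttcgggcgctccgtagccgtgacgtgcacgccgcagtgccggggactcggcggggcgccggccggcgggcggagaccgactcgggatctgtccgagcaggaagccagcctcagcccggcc
RUBCNL: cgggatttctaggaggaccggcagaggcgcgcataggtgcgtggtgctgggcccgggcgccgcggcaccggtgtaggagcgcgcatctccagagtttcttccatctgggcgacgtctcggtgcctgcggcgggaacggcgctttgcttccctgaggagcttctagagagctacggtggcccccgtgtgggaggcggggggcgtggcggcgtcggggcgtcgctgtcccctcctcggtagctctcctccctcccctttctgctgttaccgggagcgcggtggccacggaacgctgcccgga
CD96 held 2 matches and ZNF141 held 1, while MYO6 and RUBCNL held 0. The CD96 region had 6 CpG dinucleotides and 41.0% G and C, against 46 and 80.0% for MYO6, 35 and 70.0% for RUBCNL and 16 and 59.3% for ZNF141. Of 10466 tested genes with a RefSeq promoter, 9.5% held TGTGGT on either strand, against 11.7% of 616 called 2-fold higher in SKNO-1 and 9.3% of 701 called 2-fold lower. Of the genes found in 1 line only, 3 of 6 with a promoter held it for SKNO-1 and 2 of 10 for MV4-11, groups too small to compare. A match describes letters and not binding.

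Beyond these, the largest differences among genes at 20 CPM or more were spread over many functions. MPO, myeloperoxidase (chr17:58269856-58280935), was at 315, 316 and 321 CPM in SKNO-1 and 1.45, 1.79 and 1.08 CPM in MV4-11, with a log2 difference of 7.79 ± 0.18 (limma adjusted p = 1.2e-06). IGSF10, an immunoglobulin superfamily protein, was at 88.0, 83.5 and 78.4 CPM against 0.161, 0.256 and 0.120 CPM. Also among the 12 largest higher were GTSF1 (log2 difference 6.85), the protease inhibitor SERPINE2 (5.99), the neuropeptide NPW (5.63), ALOX5, which makes leukotrienes (5.27), and IGFBP2, an insulin-like growth factor binding protein (3.92). Lower, beside those already named, were NR2F1, an orphan nuclear receptor (0, 0.184 and 0.283 CPM against 155, 117 and 154 CPM), ADGRL2, latrophilin (log2 difference -10.08), RADX (-9.03), the ligand WNT7B (-8.53), SP9 (-7.86) and CDC42EP1 (-7.78). The fitted difference of a gene with few reads in 1 line depends on the 0.5 reads added before the logarithm.

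Genes downstream of the receptors were grouped in 3 lists. Of 13 STAT5-linked genes, 5 were higher and 2 lower, with 4 and 2 kept with every library left out and a median of 0.23. PIM1, a survival kinase, was at 289, 303 and 303 CPM in SKNO-1 and 93.9, 84.6 and 95.2 CPM in MV4-11 (log2 difference 1.71 ± 0.09, limma adjusted p = 1.6e-05). CISH, a feedback inhibitor, was higher by 0.61, but SOCS2, another STAT5-induced inhibitor, was at 37.8, 37.6 and 37.2 CPM against 107, 117 and 109 CPM (-1.56 ± 0.09). BCL6, a transcriptional repressor, was lower too (-1.75). The list therefore held differences both ways. The lines did not overlap for these 4 genes, which were named for large differences among the calls, nor for 53% of all genes tested.

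Among 33 genes of the RAS pathway and SHP2, 8 were higher and 2 lower, and 6 and 0 were kept with every library left out. The share called was below the 37.3% over all genes tested. The median was 0.33, but it turned to -0.10 with the mitochondrial share in the fit and to -0.07 with replicate 2 as the lone MV4-11 library. The adaptor GAB1 (1.36), the kinase MAPK3, ERK1 (0.66), and the exchange factors SOS1 (0.63) and RASGRP4 (0.57) were higher in SKNO-1. The list's largest difference was 3.82, and 2 of the 33 passed the filter through SKNO-1 alone. PTPN11, which encodes SHP2, the target of RMC-4550, was the list member closest to no difference: 139, 125 and 126 CPM in SKNO-1 and 106, 187 and 110 CPM in MV4-11, a log2 difference of 0.00 ± 0.21 that MV4-11 replicate 2 widened. Without that replicate it passed as higher in SKNO-1 (0.27). With it as the lone MV4-11 library the difference was -0.53, with the spread from SKNO-1 only, and with the mitochondrial share in the fit it passed as lower (-0.55).

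Of 17 MAP kinase output genes, 1 was higher and 10 lower in SKNO-1, with 1 and 8 kept with every library left out and a median of -0.79 (-1.03 to -0.42 over the alternatives). Among them 3 passed the filter through MV4-11 alone. SPRED1, a RAS inhibitor, was at 0, 0 and 0.0471 CPM in SKNO-1 and 8.18, 14.6 and 8.44 CPM in MV4-11. SPRY4, a Sprouty inhibitor, was at 0.185, 0 and 0.0471 CPM against 6.51, 7.93 and 4.73 CPM. CCND1, cyclin D1 (-3.28), and the ETS factor ETV4 (-2.52) were lower as well. DUSP6, the ERK phosphatase often read as the pathway's output, overlapped between the lines at 84.9, 83.9 and 84.8 CPM and 116, 84.7 and 125 CPM (-0.34 ± 0.15, limma adjusted p = 0.11). It was named after its values were seen, as were PBX3 above and CLEC12A, CD38 and CIITA below.

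Neutrophil granule genes were split: of 16, 6 were higher and 7 lower, with 4 and 6 kept with every library left out and a median of -0.40. MPO rose as given above, and BPI, a bactericidal protein (0.92), and the granulocyte factor CEBPE (1.46) were higher. ELANE, neutrophil elastase, was at 135, 151 and 163 CPM in SKNO-1 and 513, 329 and 546 CPM in MV4-11 (-1.60 ± 0.20). RNASE2, the eosinophil-derived neurotoxin, was at 23, 21.7 and 23 CPM against 203, 146 and 255 CPM (-3.12 ± 0.19), and CST7, cystatin F, was lower by 2.40. MPO and ELANE, stored in the same primary granules, thus differed in opposite directions.

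Of 18 tested monocyte genes, 5 were higher and 6 lower, with 4 and 5 kept with every library left out. TLR4, the endotoxin receptor (1.67), the chemokine receptor CCR2 (1.39) and LILRB1 (1.01) were higher in SKNO-1, and the integrin ITGAM, CD11b (-0.69), and TLR2 (-0.50) were lower. By 2-fold or more, 4 monocyte genes were called higher and 3 lower, and the list's lowest difference was -4.02. Of the 18, 3 passed the filter through MV4-11 alone. CD14 was at or below 3 reads in every library of both lines, as was CD34. Among 11 tested stem and progenitor genes, 6 were higher and 3 lower, with 5 and 1 kept. Through SKNO-1 alone, 3 of these 11 passed the filter, so those 3 had to differ in level. ERG (chr21:38380027-38661780), an ETS factor of stem cells, was at 8.17, 6.65 and 6.92 CPM in SKNO-1 and had 1 read in all of MV4-11. GATA2 was at 13.4, 13.1 and 14.1 CPM against 2.58, 2.76 and 2.15 CPM (2.43 ± 0.15). MLLT3 was higher by 1.05 and BEX1 lower by 2.06. From the 17-gene stemness score, 11 genes were tested, 4 higher and 4 lower, with 2 and 3 kept; SMIM24 (1.70) and BEX3 (0.99) were higher, and DNMT3B (-1.36) and DPYSL3 (-1.19) lower.

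Of 37 myeloid transcription factors, 9 were higher and 10 lower, with 8 and 8 kept with every library left out. Through SKNO-1 alone, 2 of the 37 passed the filter. Beside ERG, GATA2 and CEBPE, IKZF2, Helios, was higher (5.18 ± 0.313 against 0.400 ± 0.0726 CPM). Lower were BATF3, a dendritic cell factor (-2.67), ID2 (-1.52), TCF4 (-1.32) and CEBPD (-0.99).

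Markers of other lineages were sparse. Of 22 erythroid and megakaryocyte genes 8 were tested, of 18 T and NK genes 4, of 18 mast cell, basophil and eosinophil genes 6, of 19 B lymphoid genes 10, and of 14 epithelial, fibroblast and endothelial genes 5. Higher and lower calls were 3 and 1 in the first of these lists, 3 and 1 in the T and NK list, 4 and 0 in the mast cell list, 3 and 3 in the B list and 2 and 0 in the epithelial list, and 0 and 1, 2 and 0, 2 and 0, 3 and 2, and 0 and 0 were kept with every library left out. The erythroid and megakaryocyte list summed to 369 to 389 CPM in SKNO-1 and 203 to 337 CPM in MV4-11. The T and NK list summed to 525 to 539 CPM in SKNO-1 and 266 to 333 CPM in MV4-11, mostly from CD4, which monocytic cells also express (494 ± 5.78 against 247 ± 41.5 CPM); the T cell genes CD3D and CD3E and the NK gene GNLY did not reach the filter. The B list summed to 42.4 to 43.0 and 43.1 to 47.7 CPM, with IGLL1 higher (2.94) and BANK1 lower (-2.67). In the B list, 2 of the 10 tested passed the filter through SKNO-1 alone and 1 through MV4-11 alone. The mast cell list summed to 67.9 to 69.6 and 40.6 to 71.8 CPM. The epithelial list summed to 42.8 to 45.8 and 31.8 to 43.4 CPM, mostly the keratins KRT8 and KRT18. The part of any of these lists in the differences above was not tested.

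Antigens used in the diagnosis or treatment of AML were mostly higher in SKNO-1: of 26 tested, 14 were higher and 4 lower, with 11 and 3 kept with every library left out and a median of 0.39. ANPEP, CD13, was at 24.5, 26.1 and 23.7 CPM in SKNO-1 and 0.484, 0.665 and 0.958 CPM in MV4-11 (5.14 ± 0.24, limma adjusted p = 1.1e-05). CLEC12A, CLL-1, was higher by 2.66 and CD38 by 2.10, beside KIT, CD96 and IL2RA. The filter was passed through SKNO-1 alone by 2 of the 26. NCAM1, CD56, was at 8.12, 8.21 and 9.37 CPM against 48.6, 72.7 and 46.5 CPM, and the TNF family ligand CD70 at 67.7, 72.3 and 79.2 CPM against 268, 163 and 291 CPM. Both were lower in SKNO-1 without overlap. Integrin and adhesion genes were called in 13 of 24, 8 higher and 5 lower, with 7 and 3 kept. ITGA6, a laminin receptor chain, was higher by 2.72, ITGB5 by 1.5 and ITGA3 by 1.33, while ITGA7 was lower by 1.09. The lowest difference in the integrin and adhesion list was -4.67.

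MHC class I genes were called lower in 7 of 15 tested and higher in 0, with 6 kept with every library left out and a median of -0.27. The immunoproteasome subunits PSMB8 (-1.06) and PSMB9 (-1.05) and the class I activator NLRC5 (-0.99) were lower. HLA genes are near-identical and highly variable between people, so the reads of each gene are uncertain. No MHC class II gene of 8 tested was called by limma; 1 of them, the class II activator CIITA, passed at an unadjusted p under 0.05 (limma adjusted p = 0.1).

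Interferon-induced genes were called higher in 11 of 27 and lower in 3, with 10 and 0 kept with every library left out and a median of 0.59; 4 of the 27 passed the filter through SKNO-1 alone. IFI6 (20.2 ± 1.56 against 7.92 ± 0.899 CPM), IFIH1, MDA5 (30.1 ± 0.943 against 13.4 ± 3.33 CPM), OAS2 (22.9 ± 0.350 against 10.5 ± 1.63 CPM) and RSAD2 (6.24 ± 0.356 against 3.20 ± 0.554 CPM) were higher. In the libraries with RMC-4550, 0 of the 11 were again called higher, and the list's median was -0.67. Inflammatory cytokines were split, with 5 higher and 5 lower of 10 tested and 4 and 5 kept. CXCL8 was higher by 1.12. TNF was at 16.8, 16.8 and 15.6 CPM in SKNO-1 and 92.1, 79.4 and 88.2 CPM in MV4-11 (-2.39 ± 0.10). The angiogenic factor VEGFA (-1.61), CCL5 (-1.03) and IL18 (-0.75) were lower.

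Of 27 p53 target genes, 1 was higher and 6 lower, all 7 kept with every library left out, with a median of -0.20. The share called was below the 37.3% over all genes tested. CDKN1A, the cell cycle inhibitor p21, was at 95.7, 105 and 99.6 CPM in SKNO-1 and 343, 449 and 299 CPM in MV4-11 (-1.84 ± 0.15). The stress cytokine GDF15 was at 0.830, 1.06 and 1.37 CPM against 20.2, 19.1 and 22.3 CPM (-4.24 ± 0.20). SESN1 (-1.31) and the death receptor FAS (-0.96) were lower, and FDXR was higher (0.55). Of 6 pro-survival BCL2 genes 1 was higher and 2 lower, with 0 and 1 kept. Of 10 pro-apoptotic ones BMF was higher (0.56) and BIK lower (-0.87) among 3 calls, all kept. The remaining call was lower by 2-fold or more, and the pro-apoptotic list's lowest difference was -5.68. Of the 10, 1 passed the filter through MV4-11 alone.

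Cell cycle genes were seldom called the same way in every set of libraries. Of 30, 7 were higher and 2 lower, a share below the 37.3% called over all genes tested, and 1 and 1 were kept with every library left out. MCM2, a subunit of the replicative helicase, was at 119, 117 and 114 CPM in SKNO-1 and 14.4, 86.8 and 10.7 CPM in MV4-11. Its replicate 2, with the low mitochondrial share, was nearer to SKNO-1 than to the other MV4-11 libraries; the difference of 2.29 ± 0.70 passed by a narrow margin (limma adjusted p = 0.037) and was lost without MV4-11 replicate 1 or 3 and without any 1 SKNO-1 library. CDK1 was lower in SKNO-1 (58.9 ± 3.29 against 86.7 ± 2.18 CPM). Of 22 cyclins, kinases and inhibitors 3 were higher and 5 lower, with 1 and 4 kept, a share called near the 37.3% over all genes tested. CDKN2C, p18, was lower by 0.78.

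Chromatin genes were called in 9 of 23, a share near the 37.3% over all genes tested. Of these, 5 were higher and 4 lower, with 2 and 2 kept with every library left out. TET1, a methylcytosine oxidase, was at 25.9, 23.3 and 19.5 CPM in SKNO-1 and 2.96, 5.93 and 1.86 CPM in MV4-11 (2.82 ± 0.38). KMT2A itself was higher by 0.90 and HDAC9 lower by 1.19. Of 14 drug-handling genes, 3 were higher and 2 lower, with 2 and 1 kept, again a share called near the 37.3% over all genes tested. SAMHD1, which hydrolyses deoxynucleotides and active cytarabine, was at 210, 208 and 205 CPM against 70.0, 110 and 65.5 CPM (1.38 ± 0.19), and the DNA repair gene MGMT was higher by 0.81. CES1, a carboxylesterase, was at 12.8, 14.2 and 14.7 CPM against 127, 214 and 120 CPM (-3.42 ± 0.22).

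Metabolic lists moved modestly. Of 20 cholesterol synthesis genes 2 were higher and 8 lower, with 0 and 4 kept with every library left out and a median of -0.29; MVK (-0.85), NSDHL (-0.81) and MSMO1 (-0.63) were lower. Of 27 glycolysis and hypoxia genes 8 were higher and 5 lower, with 2 and 4 kept. Hexokinase HK1 (1.57) and BNIP3 (1.30) were higher, and adrenomedullin ADM (-2.35) and LDHB (-1.19) lower. Mitochondrially encoded genes were lower in SKNO-1 in 12 of 15 and higher in 0, but 1 call, that of MT-ND3, was kept with every library left out. MT-ND3 was at 422, 425 and 426 CPM in SKNO-1 and 1507.5, 699 and 1863 CPM in MV4-11, so replicate 2, apart from the other MV4-11 libraries, was closer to SKNO-1. Of 20 stress and immediate early genes 3 were higher and 9 lower, with 1 and 6 kept; the chaperone HSPA5 was higher (0.63), and GADD45B (-1.52), CHAC1 (-1.23), IER2 (-1.12) and ATF3 (-1.09) were lower. Of 13 imprinted genes 5 were higher and 0 lower, with 3 kept, with the largest difference at MEST (12.1 ± 1.05 against 0.917 ± 0.365 CPM). The share of imprinted genes called was near the 37.3% over all genes tested.

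**Figure D5:**
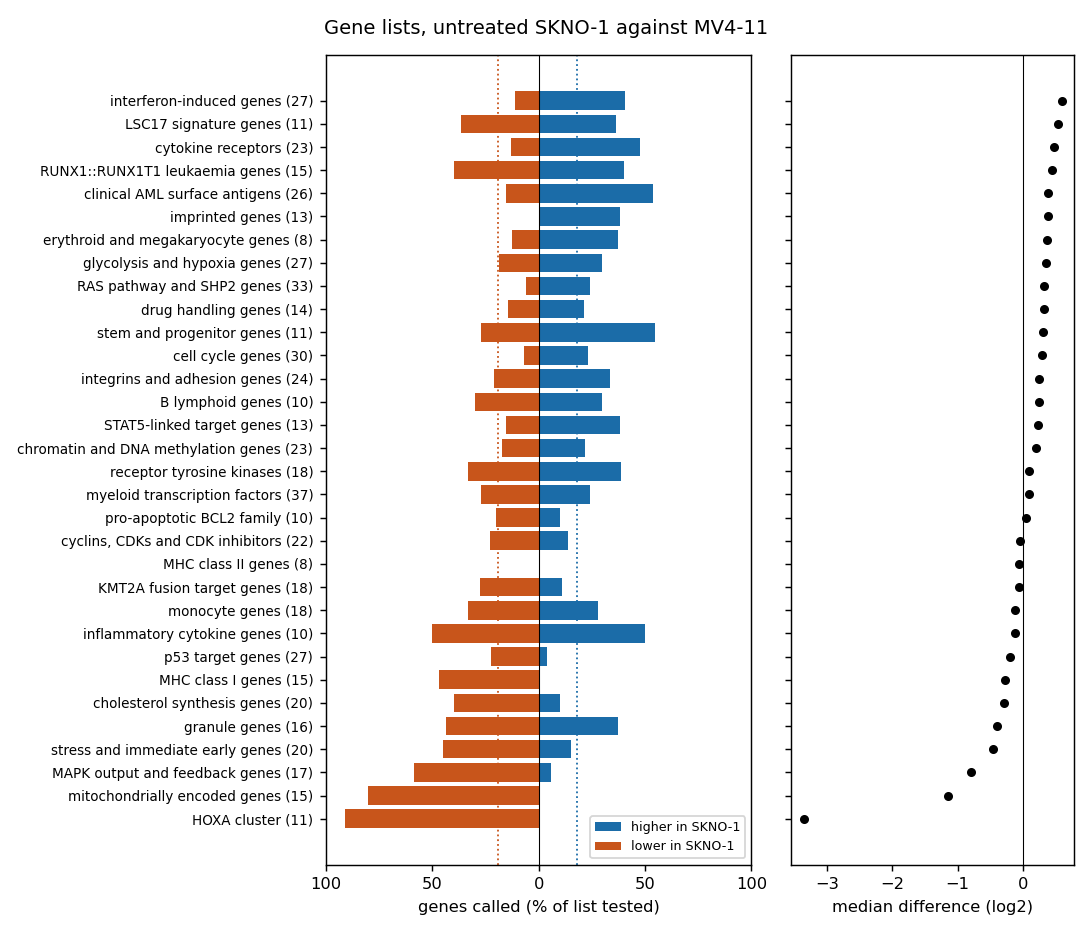
The left panel gives, for each list with at least 8 tested genes (number in brackets), the percent of tested genes called higher (right) or lower (left) in SKNO-1, with dotted lines at the shares over all genes, 18% and 19.3%. The right panel gives the list's median log2 difference, with the HOXA cluster at -3.36.

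By chromosome, the median difference lay between -0.05 and 0.17 except on chromosomes 13 (-0.33), 6 (-0.20) and 10 (-0.12). On chromosome 13, 20 of 259 tested genes were higher and 105 lower in SKNO-1, and on chromosome 6, 65 of 733 were higher and 245 lower. Chromosome 3 had the highest median, with 180 of 797 higher and 107 lower. With RMC-4550 the medians were -0.28 for chromosome 13, -0.20 for 6, -0.15 for 10 and 0.09 for 3; chromosome 22 was then the highest, at 0.0994, from 0.14 without drug. Copy number was not measured.

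The libraries with RMC-4550 gave the same contrast in cultures that the tests above did not use. There 2417 genes were higher and 3178 lower in SKNO-1 (16.4% and 21.5% of genes tested, together 37.9%), 680 and 1028 of them by 2-fold or more (4.60% and 6.96%). Of the 2066 genes (14%) called at 2-fold without drug, 2031 had the same direction with drug, 1741 (84.3%) were called in it, and 6 were called in the opposite one. KIT (2.61), MPO (8.05), RET (-7.15), HOXA13 (-6.11), CSF2RB (1.13) and SPRED1 (-7.80) were each called with the direction they had without drug. Of the 10 HOXA genes lower without drug all 10 were again called, and of the 10 lower MAP kinase output genes also 10. Over all genes tested, 2068 of 2857 lower calls and 1653 of 2654 higher calls were again called. Among the tested members, 6 HOXA and 3 MAP kinase output genes passed the filter through MV4-11 alone, so repeat calls of these add little. Of the 7 higher cell cycle genes 0 were again called, and MCM2 was at 0.08. The change of the difference with drug itself passed for 249 genes (1.68%).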

How the data were processed

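Poly(A) RNA of SKNO-1, MV4-11 and Molm-14 cells was sequenced as 18 libraries, 3 per line and treatment. Reads were aligned with STAR to GRCh38 and the tools FastQC and limma were also used, per the submitters' processing notes; the read counter, its strand setting and the annotation are not given in the sources used here. The deposited values are log2 CPM (read counts scaled to library size), per the file headers and values: with 0.5 reads added and the library size scaled, every low value tested gave whole reads within 0.05 reads, so the total reads per library were recovered from the deposited log2 values.

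Genes at 1 CPM or more in at least 3 of the 6 untreated libraries were tested with limma 3.58.1 (trended empirical Bayes, two-sided, R 4.3.3) and adjusted over all genes by Benjamini-Hochberg. CPM is 2 to the deposited value less the 0.5 reads; RPKM divides it by exon length from GENCODE 29, which also gave positions. The same fit was made on the RMC-4550 libraries, and the change with drug was tested as an interaction over 12 libraries. The scripts, also in Python 3.11.15, were tested on simulated data. The floor was 3 reads. It covers counting error alone, and only where no read was seen, not where up to 3 reads were.

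Named genes were KIT, FLT3, RUNX1T1, HOXA9, HOXA10, MEIS1, CSF2RA, CSF2RB, IL3RA, CD34, MPO and CD14, the 12 largest differences each way at 20 CPM or more, up to 4 each way per list at 5 CPM or more, the genes found in 1 line only, the 5 most abundant 2-fold calls per line, and the 5 most alike at 50 CPM or more. The members and the 38 gene lists were chosen with earlier results of these data known. Alternatives covered the scale, filter, scaling, spread model, mitochondrial share, call rule, replicate block and left-out libraries. Results for a few list members are not reported here.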

Additional observations from a re-analysis of the deposited data

Results flagged for a closer look

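For 21 of the 218 tested named genes, the difference between the lines changed with RMC-4550 (limma interaction over 12 libraries, adjusted p under 0.05). Over all 14780 genes tested it changed for 249 (1.68%). The named genes were picked mainly for large differences with DMSO, which the change subtracts. A smaller difference with drug is therefore partly built in, and the 2 shares are not a like comparison. Each value below is the SKNO-1 minus MV4-11 difference with drug, less that with DMSO, in log2.

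Several differences shrank or turned. IFI6 had -1.74 (from 1.35 to -0.38) and OAS2 -1.55 (from 1.13 to -0.41), and OAS2 went from 22.9 to 110 CPM in SKNO-1 and from 10.5 to 147 CPM in MV4-11. IL2RA had -1.87 as MV4-11 went from 1.98 to 9.16 CPM, and PIM1 had -0.66 as MV4-11 went from 91.2 to 141 CPM. ALOX5 had -1.22, ITGB5 -1.82 and ITM2A -2.23.

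Other differences widened in the direction of MV4-11. The receptors FGFR3 and EPHB4 had -1.26 and -1.18, the ETS factor ETV4 -1.65, TNF -0.88 and CDKN2C -0.57. ISG15, an interferon-induced gene, had -1.01 and the replication factor CDC45 -1.02. UHRF1, alike in the lines without drug, had -1.05. FGFR3 went from 9.35 to 25.9 CPM in MV4-11 against 1.95 to 2.25 CPM in SKNO-1.

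The change was positive for GDF15 (1.61), CYP1B1 (1.54), TCF4 (0.99), IL18 (0.70), BEX1 (0.68) and NFE2 (0.57). CYP1B1 turned, from -0.63 to 0.91, and the other 5 differences shrank. The mitochondrial share of reads also differed between these libraries, at 12.7%, 5.87% and 14.6% in MV4-11 with DMSO and 10.5%, 5.91% and 7.02% with drug, and its part in these changes was not tested.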

How the results depend on the processing

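Among the 22 alternatives no named gene that was called turned its direction. The other called genes were not checked for this. With the mitochondrial share in the fit, PTPN11 (-0.55) and FLT3 (-0.62), neither called in the comparison itself, passed as lower. In all of the 22 alternatives that tested them, 86 of 218 named genes kept both direction and call. A gene that an alternative left out was not counted as changed there. The count of calls depended on MV4-11 replicate 2. With 1 library left out, genes higher in SKNO-1 ranged from 1180 to 5629, lower from 1644 to 4959, 2-fold higher from 682 to 1443 and 2-fold lower from 1020 to 1484; the upper ends came without MV4-11 replicate 2, which left the more alike replicates 1 and 3. A test against a fold of 2 called 277 higher and 473 lower under either rule. Requiring a mean of 5 CPM left 414 and 617 genes at 2-fold, 1 CPM in 2 libraries of each line (chosen after seeing the data) left 526 and 748, and no filter gave 1829 lower at 2-fold; these test fewer or more genes. At 5 CPM, 20 and 28 genes were found in 1 line only, and at 20 CPM 1 and 6. With RMC-4550, a pseudocount of 1 gave 407 genes 2-fold higher, and with 1 library left out the higher genes ranged from 1515 to 3182 (1515 and 1552 without SKNO-1 replicate 3 or 2). The cause of these shifts was otherwise not tested.

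Deviations of same-numbered replicates correlated at -0.089, -0.037 and 0.121, so the numbers were not taken as pairing. With the replicate block, 2393 genes were higher and 2549 lower, 914 and 1196 at 2-fold.

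With 3 libraries per line the precision is limited mainly by the MV4-11 spread. The sign of the list median held in all alternatives that tested list members for 21 of 38 lists. It turned in some for 17, the receptor tyrosine kinase, KMT2A target and RAS pathway lists among them.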
